A study of Mus musculus with 4 samples.

Results

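Integrins are the cell-surface receptors that tie cells to the extracellular matrix. The values below describe 10 integrin subunit genes of the mouse, chosen by name: the alpha subunit genes Itga1, Itga2, Itga3, Itga5 and Itga7 and the beta subunit genes Itgb3, Itgb4, Itgb5, Itgb7 and Itgb8. All 10 were in the deposited table, which held 9997 distinct gene symbols. RNA was sequenced from embryoid bodies (floating clumps of differentiating stem cells) grown from the mouse stem cell line ES-E14TG2a. There were 4 libraries, 1 per group: a control, and embryoid bodies treated with all-trans retinoic acid (ATRA, a derivative of vitamin A used to push such cells towards neurons) and labelled 0, 6 and 10 days. The protocol gave ATRA (5 µM) at culture days 4 and 6, and after 8 days the embryoid bodies were plated on poly-DL-ornithine and laminin. Laminin is itself an integrin ligand. The control is labelled only as such: the sources used here do not give its culture day, any vehicle or whether it was plated. In comparisons with it, ATRA, culture age and plating therefore cannot be told apart. The sample labels do not say from which point the 0, 6 and 10 days count. Comparisons among the ATRA libraries therefore cannot tell apart time since ATRA, culture age and any time on laminin.

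An integrin is a heterodimer of 1 alpha and 1 beta subunit. The pair decides the ligand: some pairs bind laminins, some bind collagens, and others recognise the Arg-Gly-Asp motif of fibronectin and vitronectin. Inside the cell, talin and kindlin bind the beta tail and join the receptor to actin. Stem cells use these receptors to attach to the matrix, and embryoid bodies need them to organise around a basement membrane. The partners Itgb1, Itgav, Itga4 and Itga6, with which many of the 10 subunits pair, were not analysed here. The heterodimers themselves were therefore not measured.

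Levels are given in FPKM, fragments divided by transcript length in kilobases and by the mapped fragments of the library, which allows genes of different length to be set side by side. Depth was estimated from small values above 0, those with FPKM times kilobases between 0.02 and 0.05. This window bounds the estimate, and the fragment numbers and intervals below rest on it. The estimate was 24500000 fragments in the control and 26400000, 25200000 and 27300000 at 0, 6 and 10 days. Each level below carries a 95% exact Poisson interval on the estimated fragments, which covers counting error only. Each group being 1 library, nothing was tested and no spread between replicates is known. Differences were taken between log2(FPKM + 1) values, where changes of low genes come out too small, and a gene was called when the difference reached 1 (2-fold). Of the 10 genes, 6 reached 1 FPKM in at least 1 library and entered the count of calls: Itga3, Itga5, Itgb3, Itgb4, Itgb5 and Itgb7. The other 4, Itga1, Itga2, Itga7 and Itgb8, stayed below 1 FPKM in all 4 libraries and are given as levels. In bulk RNA, fewer cells of a type and less RNA per cell cannot be told apart.

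Markers of several lineages differed between the libraries. Summed over 7 of 10 pluripotency markers, those in the table, the level was 2145 FPKM in the control and 152, 251 and 233 FPKM at 0, 6 and 10 days. The neural markers (7 of 11) summed to 9.82 FPKM in the control and 23.0, 120 and 55.7 FPKM at 0, 6 and 10 days. Markers of epithelium (7 of 8) summed to 204, 374, 2408 and 4054 FPKM in the same order, and markers of endoderm (7 of 11) to 163, 320, 2423 and 3544 FPKM. Trophoblast markers (7 of 7) summed to 0.395, 0.157, 58.7 and 124 FPKM, and muscle markers (7 of 9) to 28.9, 36.6, 66.8 and 310 FPKM. The neural sum was highest at 6 days, and the epithelial, endodermal, trophoblast and muscle sums at 10 days. The part of these markers' cells in the integrin values below was not tested.

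The integrin genes fell into an abundant and a scarce set. In the control the order of levels was Itgb7, Itga5, Itga3, Itgb5, Itgb4 and Itgb3, followed by the 4 scarce genes. At 10 days it was Itgb5, Itga5, Itga3, Itgb4, Itgb7 and Itgb3, again followed by the scarce genes. Itgb4 and Itgb7 had overlapping counting intervals at 0 and at 6 days, so their order there is not resolved. Of the 10 genes, 6 had their highest level at 10 days, 2 in the control (Itgb3 and Itgb7), 1 at 0 days (Itga2) and 1 at 6 days (Itgb8). Of the 6 that reached 1 FPKM, 4 were highest at 10 days and 2 in the control, beside 29.6% and 38.2% of all 5885 genes tested. Itgb8 and Itga2 are scarce throughout, and their place in that order rests on few fragments.

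**Figure D1:**
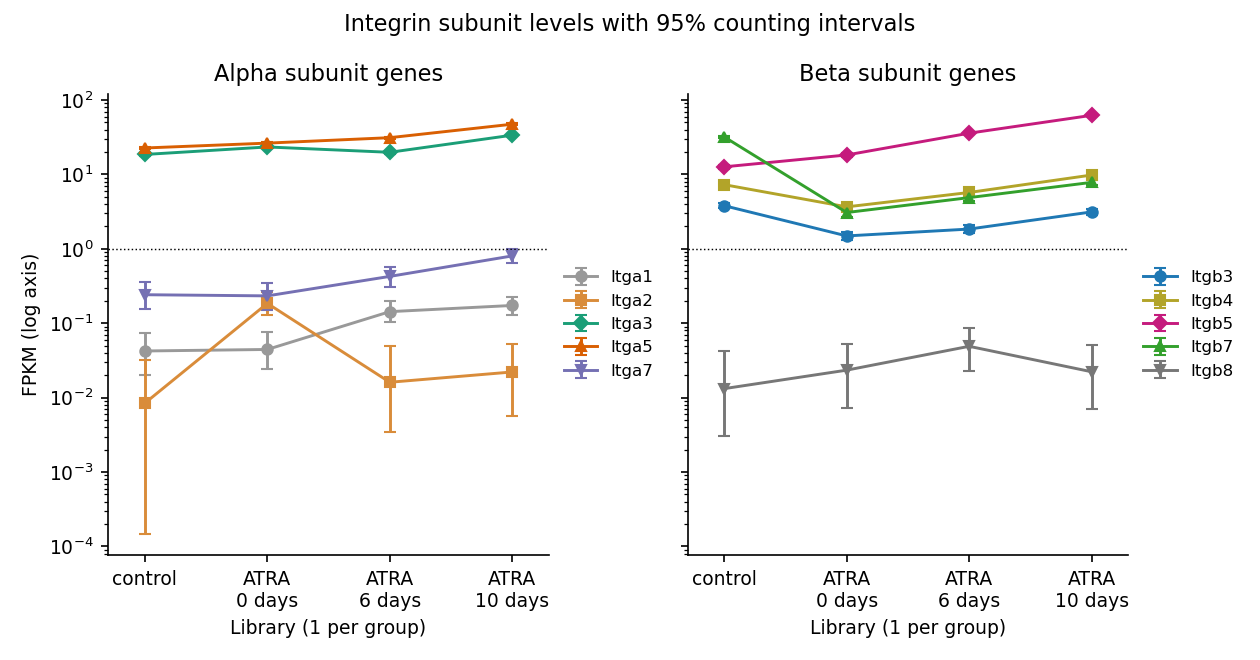
FPKM on a log axis (vertical) of the 5 alpha subunit genes (left) and 5 beta subunit genes (right) in the control and the ATRA libraries at 0, 6 and 10 days (horizontal), 1 library per group. Bars are 95% Poisson counting intervals and the dotted line marks 1 FPKM. Itgb5 stands at 62.3 FPKM at 10 days. Itgb7 stands at 3.08 FPKM at 0 days, against 31.9 FPKM in the control.

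On the log2(FPKM + 1) scale, Itgb7 had the largest range of the 10 genes. It encodes the beta subunit that pairs with the alpha-4 and alpha-E subunits and is best known from lymphocytes that home to the gut. Its level was 31.9 FPKM in the control (interval 30.5 to 33.3), 3.08 FPKM at 0 days (2.69 to 3.52), 4.88 FPKM at 6 days (4.37 to 5.44) and 7.82 FPKM at 10 days (7.18 to 8.48). The control stood above every ATRA library, and the 3 ATRA intervals did not overlap one another. At 0 days Itgb7 was lower than in the control by 3.01 on the log2 scale, and its FPKM was 10.4-fold lower. At 10 days it was lower than in the control, by -1.90, and higher than at 0 days, by 1.11. The gene lies on mm10 chromosome 15, from 102215995 to 102231944 on the minus strand. Its neighbour 2994 bases upstream, on the same strand, is Rarg, which encodes a retinoic acid receptor. Rarg stood at 79.5 FPKM in the control and 42.4, 12.4 and 11.2 FPKM at 0, 6 and 10 days. Itgb7 was higher at 10 than at 0 days, while Rarg was lower. A closer neighbour, Zfp740, lies 389 bases beyond the other end of Itgb7, on the opposite strand. Zfp740 stood at 43.0 FPKM in the control and 47.2, 28.2 and 28.2 FPKM at 0, 6 and 10 days. The part of these neighbours in the Itgb7 values was not tested. The pluripotency markers, like Itgb7, were highest in the control, where Pou5f1 stood at 1241 FPKM; at 10 days it stood at 141 FPKM.

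Itgb5 had the largest positive difference of the 10 genes on the same scale. It encodes a partner of the alpha-V subunit in a receptor for vitronectin. The gene stood at 12.7 FPKM in the control (11.9 to 13.5), 18.3 FPKM at 0 days (17.4 to 19.2), 35.8 FPKM at 6 days (34.6 to 37.1) and 62.3 FPKM at 10 days (60.6 to 63.9). In this order of listing each library was above the one named before it, with no overlap of the intervals. The epithelial, endodermal, muscle and mesenchyme marker sums had the same order of libraries. At 10 days Sparc, at 2711 FPKM, made up most of the endodermal sum, and Tnnc1, at 217 FPKM, most of the muscle sum. Not every marker had that order. The epithelial marker Epcam, the muscle marker Myl7 and the endoderm marker Amn were among those lower at 0 days than in the control. Amn stood at 2.56 FPKM at 0 days, against 6.27 FPKM in the control. The muscle marker Des was lower at 6 than at 0 days, and the endoderm marker Dab2 lower at 10 than at 6 days. The difference was 0.50 at 0 days against the control, 0.94 at 6 against 0 days and 0.78 at 10 against 6 days. None of these reached 2-fold. The control has no known culture day, so the first of them is not known to be a step in time. At 10 days against the control the difference was 2.21, an FPKM ratio of 4.92 (4.60 to 5.26). At 10 days its level was at or above that of 93.0% of the symbols in the table, against 74.4% in the control. Itgb5 lies on chromosome 16, from 33829665 to 33949338 on the plus strand.

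Itgb3 and Itgb4 were lower at 0 days than in the control, and higher at 6 and 10 days than at 0 days. Itgb3, the beta subunit of the platelet fibrinogen receptor and of another vitronectin receptor, had 3.80 FPKM in the control (3.49 to 4.14), 1.49 FPKM at 0 days (1.30 to 1.70), 1.84 FPKM at 6 days (1.63 to 2.08) and 3.13 FPKM at 10 days (2.86 to 3.42). The difference at 0 days against the control was -0.95, just short of a call, and adding 0.5 or 0.1 FPKM in place of 1 made it -1.11 or -1.29, which was called. At 10 days against the control the difference was -0.22.

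Itgb4, which pairs with alpha-6 and anchors epithelial cells to laminin through hemidesmosomes, had 7.28 FPKM in the control (6.86 to 7.72), 3.66 FPKM at 0 days (3.38 to 3.97), 5.72 FPKM at 6 days (5.35 to 6.11) and 9.81 FPKM at 10 days (9.34 to 10.3). Its difference at 0 days against the control was -0.83, and at 10 days against 0 days it rose by 1.21. The gene had 2 rows in the table, which were summed. The smaller row added 0.490, 0.113, 0.122 and 0.909 FPKM in the control and at 0, 6 and 10 days. The end of Itgb4 lies 45 bases from that of Galk1, on the opposite strand, which stood at 69.8 FPKM in the control and 52.1, 137 and 251 FPKM at 0, 6 and 10 days. The lincRNA gene B230344G16Rik overlaps exons of Itgb4 on the opposite strand and was not analysed here. The sources used here do not say whether the counting used strand, and the part of Galk1 in the Itgb4 values was not tested. Itgb3 and Itgb4 both lie on chromosome 11, at 104608000 to 104670476 and 115974709 to 116008412.

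Itgb8 was barely detected. It encodes an alpha-V partner known for releasing active TGF-beta from its latent complex. Its levels were 0.0132 FPKM in the control and 0.0234, 0.0489 and 0.0223 FPKM at 0, 6 and 10 days, which correspond to about 3, 5, 10 and 5 fragments. In each of the 5 comparisons made, the interval of its ratio included 1, for example 0.291 to 9.64 for 10 days against the control. A difference was not detectable at this depth in these comparisons.

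Among the 5 alpha subunit genes chosen, Itga5 and Itga3 held nearly all of the signal. Itga5 encodes the alpha subunit of the main fibronectin receptor. It stood at 22.7 FPKM in the control (21.8 to 23.6), 26.3 FPKM at 0 days (25.4 to 27.3), 31.2 FPKM at 6 days (30.1 to 32.2) and 47.3 FPKM at 10 days (46.1 to 48.6). In this order of listing each library was again above the one named before it, with no overlap of the intervals. The difference at 10 days against the control was 1.03, just past the call, with an FPKM ratio of 2.09 (1.99 to 2.19). It was 0.21 at 0 days against the control, 0.23 at 6 against 0 days and 0.59 at 10 against 6 days.

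Itga3, the alpha subunit of a receptor for basement membrane laminins, had 18.5 FPKM in the control (17.8 to 19.3), 23.4 FPKM at 0 days (22.6 to 24.2), 19.8 FPKM at 6 days (19.1 to 20.6) and 33.7 FPKM at 10 days (32.7 to 34.7). The intervals of the 6-day library and the control overlapped, and the 10-day library stood above all others. At 10 days against the control the difference was 0.83, short of a call. It became 1.00 with median-ratio scaling over genes at 1 FPKM or more, and was then called. Itga3 lies on chromosome 11 (95044474 to 95076801) and Itga5 on chromosome 15 (103344286 to 103366763), both on the minus strand.

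The other 3 of the alpha subunits chosen were scarce. Itga7, the alpha subunit of the laminin receptor of muscle, had 0.242 FPKM in the control (0.156 to 0.362), 0.233 FPKM at 0 days (0.153 to 0.348), 0.426 FPKM at 6 days (0.307 to 0.572) and 0.803 FPKM at 10 days (0.643 to 0.988). The 10-day library stood above the others, with an FPKM ratio to the control of 3.32 (2.08 to 5.41). Summed over 7 muscle markers the level was 310 FPKM at 10 days, against 28.9 FPKM in the control, and the part of muscle cells in the Itga7 value was not tested. The 3′ end of Itga7 overlaps Mettl7b on the opposite strand, which was listed at 0 in the control and stood at 0.0614, 0.131 and 0.399 FPKM at 0, 6 and 10 days. The overlap is short: on chromosome 10 Itga7 ends at 128958282 and Mettl7b spans 128958274 to 128960988. Reads of these overlapping ends cannot be told apart without strand.

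Itga1 and Itga2 encode the alpha subunits of the collagen receptors that pair with Itgb1. Itga1 had 0.0423 FPKM in the control (0.0204 to 0.0732), 0.0444 FPKM at 0 days (0.0239 to 0.0769), 0.143 FPKM at 6 days (0.103 to 0.197) and 0.173 FPKM at 10 days (0.130 to 0.228). Its 6-day and 10-day intervals lay above those of the control and 0 days. The gene Pelo lies inside Itga1 on the same strand (chromosome 13, 115088355 to 115090186) and stood at 7.31 FPKM in the control and 11.4, 11.7 and 20.3 FPKM at 0, 6 and 10 days. No exon of Pelo overlaps one of Itga1, and its part in the Itga1 values was not tested. Gm49395, which shares exons with Itga1, was not analysed here.

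Itga2 was the only one of the 10 genes with its highest level at 0 days. It had 0.185 FPKM there (0.130 to 0.260), against 0.00844 FPKM in the control (0.000145 to 0.0320), which correspond to about 35 fragments and 1 fragment. The ratio was 21.9, with a counting interval of 5.47 to 1321. At 6 and 10 days it stood at 0.0161 and 0.0221 FPKM, about 3 and 4 fragments. The 0-day interval did not overlap that of any other library. Even there the level was far below that of Itga3 or Itga5.

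Among the 5 beta genes chosen, the make-up of the RNA shifted between the control and the ATRA libraries. Subunits that were not analysed, Itgb1 among them, are outside these shares. Itgb7 made up 57.3% of the summed FPKM of the 5 beta genes in the control, and 11.6%, 10.1% and 9.41% at 0, 6 and 10 days. Itgb5 made up 22.7% in the control, and 68.9%, 74.1% and 75.0% at 0, 6 and 10 days. The sum over the 5 beta genes was 55.6 FPKM in the control, 26.5 FPKM at 0 days, 48.3 FPKM at 6 days and 83.0 FPKM at 10 days. Itgb5 and Itgb3 both encode alpha-V partners in vitronectin receptors. The FPKM ratio of Itgb5 to Itgb3 was 3.33 in the control and 12.3, 19.4 and 19.9 at 0, 6 and 10 days.

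Among the 5 alpha genes chosen, the make-up of the RNA moved less than its sum. Subunits that were not analysed, Itgav and Itga6 among them, are outside these shares. Itga5 made up 54.6% of the summed FPKM of the 5 alpha genes in the control, and 52.5%, 60.4% and 57.7% at 0, 6 and 10 days. Itga3 made up 44.7% in the control, and 46.6%, 38.4% and 41.1% at 0, 6 and 10 days. The sum was 41.5 FPKM in the control, 50.2 FPKM at 0 days, 51.6 FPKM at 6 days and 82.0 FPKM at 10 days. The largest share of any other of these 5 genes was that of Itga7 at 10 days, 0.979%.

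**Figure D2:**
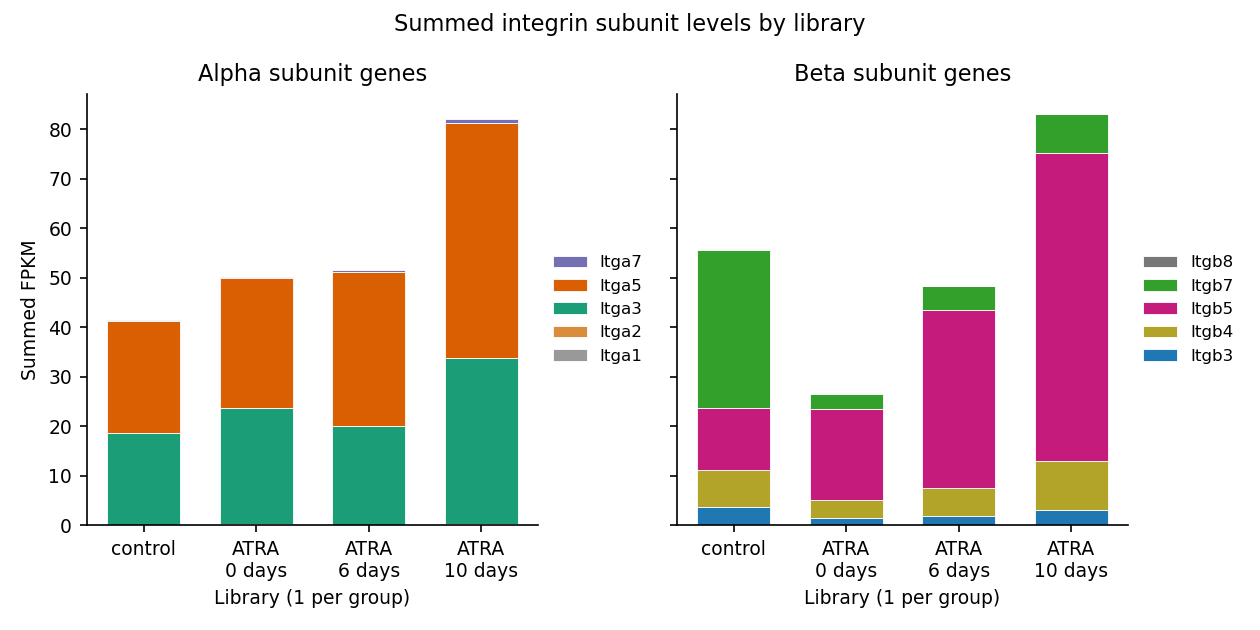
Summed FPKM (vertical, from 0) of the 5 alpha subunit genes (left) and 5 beta subunit genes (right) chosen, in each of the 4 libraries (horizontal), stacked by gene. Itgb7 fills 57.3% of the beta bar in the control and 9.41% at 10 days, where Itgb5 fills 75.0%; Itga3 and Itga5 fill nearly all of each alpha bar.

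Calls among the 6 integrin genes are given beside those among all 5885 genes tested. At 0 days against the control, 1 of 6 integrin genes was lower (Itgb7) and none higher, where 12.8% of all genes were called lower, 12.2% higher and 25.0% in either direction. The higher share of those calls was 48.9%, and 60.6% with median-ratio scaling over genes at 1 FPKM or more. The integrin median was -0.31, beside -0.04 over all genes. At 6 days against 0 days none of the 6 was called, where 8.22% of all genes were called higher, 4.88% lower and 13.1% in either direction, and the medians were 0.38 and 0.01. At 10 days against 6 days none was called either, where 3.70% of all genes were called higher, 0.850% lower and 4.55% in either direction. All 6 integrin genes had a difference above 0 at that step, between 0.54 and 0.78, beside 51.6% of all genes above 0. The integrin median was 0.64 and that of all genes 0.02.

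At 10 days against the control 3 of the 6 were called. Itga5 and Itgb5 were higher and Itgb7 was lower, where 19.6% of all genes were called higher, 17.1% lower and 36.7% in either direction. A comparison of 10 days with 0 days was added after the values were seen. In it Itgb4, Itgb5 and Itgb7 were higher and none of the 6 was lower, where 14.4% of all genes were called higher, 7.60% lower and 22.0% in either direction. These comparisons share libraries and are not independent of one another. Median-ratio scaling over genes at 1 FPKM or more moved the median of all genes by 0.11 at 0 days and by 0.15 at 10 days, both against the control.

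**Figure D3:**
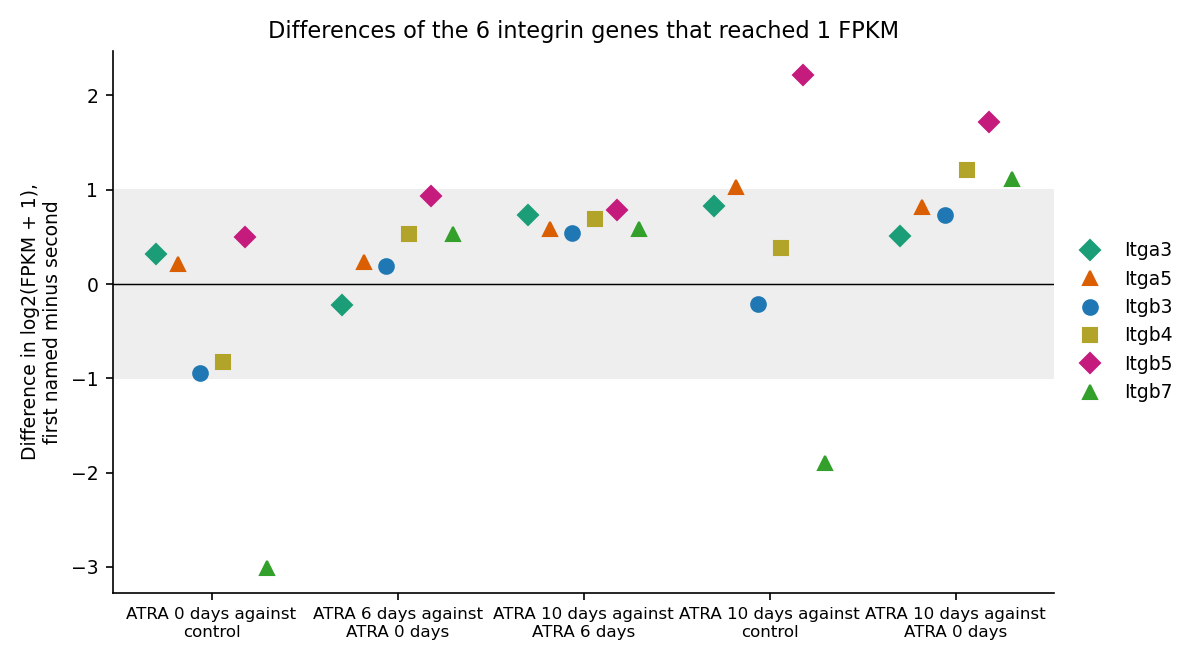
Difference in log2(FPKM + 1) (vertical) of the 6 integrin genes that reached 1 FPKM, in 5 comparisons (horizontal), each as the first named library minus the second; the grey band holds differences short of 2-fold. Itgb7 lies at -3.01 for 0 days against the control, and all 6 genes lie between 0.54 and 0.78 for 10 days against 6 days.

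**Figure D4:**
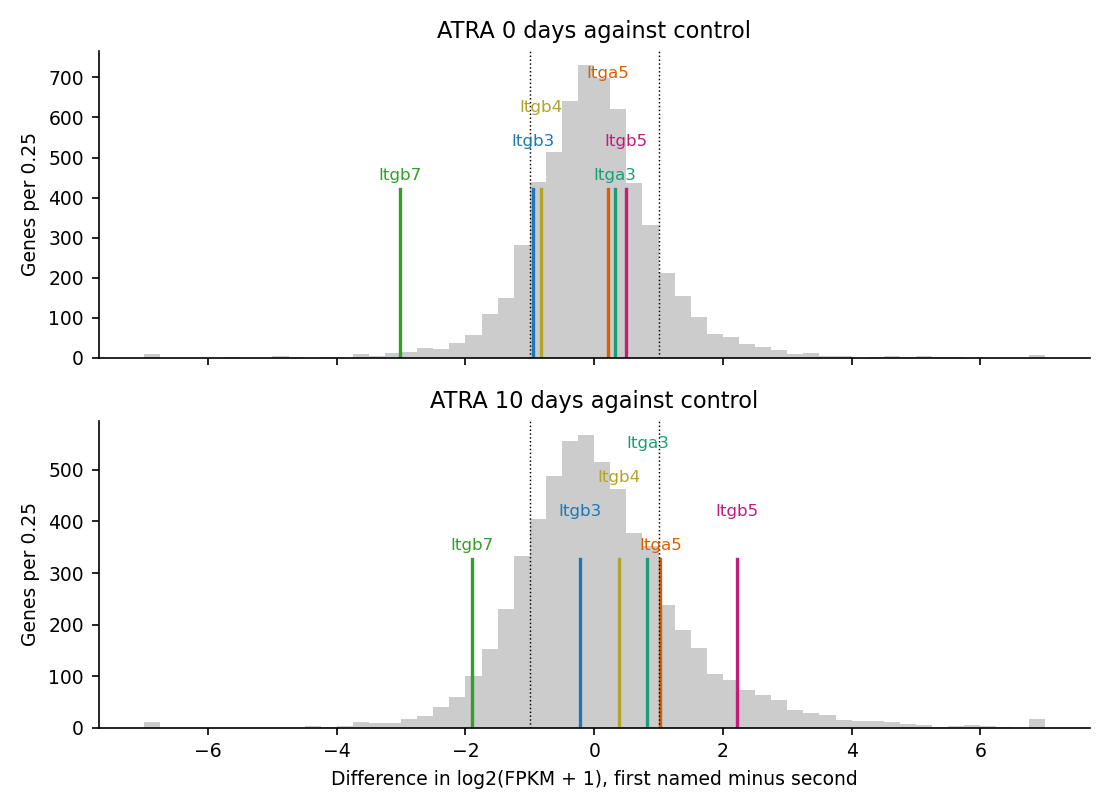
Number of genes per 0.25 bin (vertical) by difference in log2(FPKM + 1) (horizontal) for the 5885 genes tested, at 0 days against the control (top) and 10 days against the control (bottom); values beyond 7 are drawn at 7. Coloured lines mark the 6 integrin genes and dotted lines mark 2-fold; Itgb7 stands at -3.01 (top) and -1.90 (bottom), and Itgb5 at 0.50 (top) and 2.21 (bottom).

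The promoters of Itga5, Itgb5 and Itgb7 are shown because these are the 3 genes called at 10 days against the control, 2 higher and 1 lower. Each window holds the 250 bases before the RefSeq start of transcription on GRCm38.p6 (mm10), 5′ to 3′ on the strand of the gene. Capitals mark GGGCGG or its reverse complement CCGCCC, the GC box bound by factors of the Sp family. The windows are chr15:103366792-103367041 on the minus strand for Itga5, chr16:33829415-33829664 on the plus strand for Itgb5, and chr15:102231936-102232185 on the minus strand for Itgb7.
Itga5: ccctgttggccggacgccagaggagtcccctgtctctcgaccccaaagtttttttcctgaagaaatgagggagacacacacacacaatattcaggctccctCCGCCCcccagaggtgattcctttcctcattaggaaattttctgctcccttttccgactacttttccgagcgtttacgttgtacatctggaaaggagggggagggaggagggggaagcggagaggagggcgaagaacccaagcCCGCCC
Itgb5: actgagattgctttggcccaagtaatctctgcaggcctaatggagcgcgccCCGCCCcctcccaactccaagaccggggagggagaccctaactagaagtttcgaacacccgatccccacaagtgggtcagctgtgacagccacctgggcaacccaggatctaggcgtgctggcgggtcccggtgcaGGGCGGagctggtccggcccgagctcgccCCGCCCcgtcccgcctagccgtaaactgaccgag
Itgb7: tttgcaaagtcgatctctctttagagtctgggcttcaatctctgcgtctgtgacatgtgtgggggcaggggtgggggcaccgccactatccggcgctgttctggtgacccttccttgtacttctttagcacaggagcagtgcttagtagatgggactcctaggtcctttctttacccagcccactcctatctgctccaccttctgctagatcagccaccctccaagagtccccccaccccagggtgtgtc

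The Itga5 window held 2 GC boxes, the Itgb5 window 3 and the Itgb7 window none, where 32.7% of 32851 RefSeq windows of the same length held at least 1. G and C made up 55.6% of the Itga5 window, 65.2% of the Itgb5 window and 56.0% of the Itgb7 window, beside a median of 52.4% over all windows. CpG dinucleotides numbered 11, 18 and 5, beside a median of 6. Windows were found for 7 of the 10 genes; Itga7, Itgb3 and Itgb4 had none in the table. None of these windows held AGGTCA or AGTTCA on either strand, 2 forms of the half-site of retinoic acid receptors. Of all windows, 14.0% and 11.8% held them. Other forms of the half-site were not searched for over all windows. As printed above, the Itgb5 window holds one such form, GGGTCA, and the Itgb7 window its reverse complement TGACCC. The Itga5 window holds neither. How many of all windows hold this form was not counted. The direct repeat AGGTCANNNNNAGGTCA was in 3 of all windows and in none of these. These are matches of letters in 250 bases, and say nothing of binding here or elsewhere.

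Of 17 other integrin subunit genes looked for, 4 were in the table, and all were low. Itgae, the alpha-E partner of Itgb7, had 1.54 FPKM in the control and 0.516, 0.448 and 0.332 FPKM at 0, 6 and 10 days. Its highest library was the control, as for Itgb7, and its difference at 10 days against the control was -0.93, short of a call. Itga2b, the platelet partner of Itgb3, had 0.259 FPKM in the control and 0.596, 0.287 and 1.17 FPKM at 0, 6 and 10 days. Itgb2, the beta subunit shared by leukocyte integrins, stayed between 0.0606 and 0.112 FPKM, and Itgb2l between 0 and 0.0258 FPKM. Of the leukocyte and platelet markers, 7 of 10 were in the table, Itga2b and Itgb2 among them. They summed to 0.768 FPKM in the control and 2.18, 2.08 and 5.71 FPKM at 0, 6 and 10 days. Csf1r, a receptor of macrophages, made up most of the sum at 10 days, at 4.15 FPKM, against 0.0281 FPKM in the control. Ptprc, the pan-leukocyte marker CD45, was at most 0.0332 FPKM, and Cd48 was listed at 0 in all 4 libraries. The part of blood cells in the integrin values was not tested.

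Genes for matrix ligands had larger median differences than the integrin genes at 10 days against the control, where 19.6% of all genes were called higher. Of 11 laminin chain genes 8 were in the table and 6 were tested, and all 6 were higher at 10 days than in the control, with a median difference of 2.69. At 6 days against 0 days 5 of the 6 were higher, beside 8.22% of all genes. Lama1, a chain of the first embryonic laminin, stood at 179 FPKM at 10 days, against 21.4 FPKM in the control. Lamb1, a chain common to embryonic laminins, stood at 493 FPKM at 10 days, against 19.1 FPKM in the control. Lamb3, a beta chain of epithelial laminin, stood at 7.01 FPKM at 10 days, against 0.551 FPKM in the control. Lama3, an alpha chain of epithelial laminin, had 0.424 FPKM at 10 days, against 0.837 FPKM in the control, and stayed below 1 FPKM. Of 13 collagen genes 8 were in the table and 7 were tested, of which 6 were higher at 10 days than in the control and none lower, with a median of 3.31. Col1a1 and Col3a1, fibrillar collagens, stood at 42.8 and 42.5 FPKM at 10 days, against 0.328 and 0.00631 FPKM in the control. Both are also among the mesenchyme markers (5 of 7 in the table), which summed to 116 FPKM at 10 days, against 1.22 FPKM in the control, and the part of mesenchyme in their values was not tested. The collagen receptor genes Itga1 and Itga2 stood at 0.173 and 0.0221 FPKM in the same library, against 0.0423 and 0.00844 FPKM in the control.

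Ligands of the Arg-Gly-Asp receptors and related matrix proteins followed the same direction. Of 24 genes 12 were in the table and 10 were tested, with a median of 1.88 at 10 days against the control. Of the 10, 8 were higher and none lower, beside 19.6% and 17.1% of all genes. Vtn, the vitronectin ligand of the Itgb5 and Itgb3 receptors, had 0.106 FPKM in the control, 0.0777 FPKM at 0 days, 30.9 FPKM at 6 days and 59.1 FPKM at 10 days. Fbln1, a basement membrane glycoprotein, stood at 110 FPKM at 10 days, against 10.7 FPKM in the control. Ctgf, a secreted matrix protein that integrins bind, stood at 674 FPKM at 10 days, against 26.3 FPKM in the control. Fn1, the fibronectin ligand of Itga5, was not called, at 70.1 FPKM at 10 days, against 41.8 FPKM in the control. Madcam1, the gut ligand of the alpha-4 and Itgb7 receptor, was not called either. It had 0.789 FPKM in the control and 2.44, 0.821 and 0.820 FPKM at 0, 6 and 10 days. Its difference at 0 days against the control was 0.94, short of a call.

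Genes for proteins that link integrins to actin had a smaller median difference than the ligand genes. Of 29 genes for activation and linkage 13 were in the table and 12 were tested, of which 2 were higher and 2 lower at 10 days than in the control, with a median of 0.23. These counts are near the shares of all genes, 19.6% higher and 17.1% lower. The higher ones were Tns4, a tensin that binds beta tails, at 6.37 FPKM at 10 days, against 0.0984 FPKM in the control, and Dab2, an endocytic adaptor of integrins, at 161 FPKM at 10 days, against 14.0 FPKM in the control. The lower ones were Tns3 (10.5 FPKM at 10 days, against 31.8 FPKM in the control) and Fermt2, a kindlin (23.2 FPKM at 10 days, against 57.8 FPKM in the control). Dab2 is also among the endoderm markers, which summed to 3544 FPKM at 10 days, against 163 FPKM in the control, and the part of endoderm in its value was not tested.

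Of 28 genes for adhesion signalling 13 were in the table and 12 were tested, of which 3 were higher at 10 days than in the control and none lower, beside 19.6% and 17.1% of all genes, and their median was -0.27. The count of higher genes is near that share. Ptk2b, a relative of focal adhesion kinase, stood at 13.0 FPKM at 10 days, against 4.21 FPKM in the control. Nck2, an adaptor, stood at 15.0 FPKM at 10 days, against 4.18 FPKM in the control, and Lims2, a partner of integrin-linked kinase, at 11.9 FPKM at 10 days, against 3.16 FPKM in the control. Ptk2, focal adhesion kinase itself, had 24.0 FPKM in the control and 27.4, 25.6 and 23.4 FPKM at 0, 6 and 10 days. Parvb, a parvin of the same complex as Lims2, was lower by 2.10 at 0 days, at 23.6 FPKM, against 105 FPKM in the control.

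Of 6 hemidesmosome partners of Itgb4, 4 were in the table and tested. At 10 days against the control 2 were called higher and none lower, beside 19.6% and 17.1% of all genes. The higher ones were the basal keratins Krt5 and Krt14. Plec and Dst were not called, and both were below the control, Dst at 3.77 FPKM at 10 days, against 5.09 FPKM. Krt14 stood at 7.61 FPKM at 10 days, against 0.0393 FPKM in the control, and Krt5 at 5.18 FPKM at 10 days, against 0.0459 FPKM in the control. Plec, plectin, which binds the Itgb4 tail, had 12.8 FPKM in the control and 3.94, 6.89 and 8.97 FPKM at 0, 6 and 10 days. It was lower than in the control at 0 days, by -1.48, as Itgb4 was by -0.83. The epithelial marker Epcam was also lowest at 0 days, at 24.3 FPKM, against 51.8 FPKM in the control, while the sum of the 7 epithelial markers was lowest in the control.

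**Figure D5:**
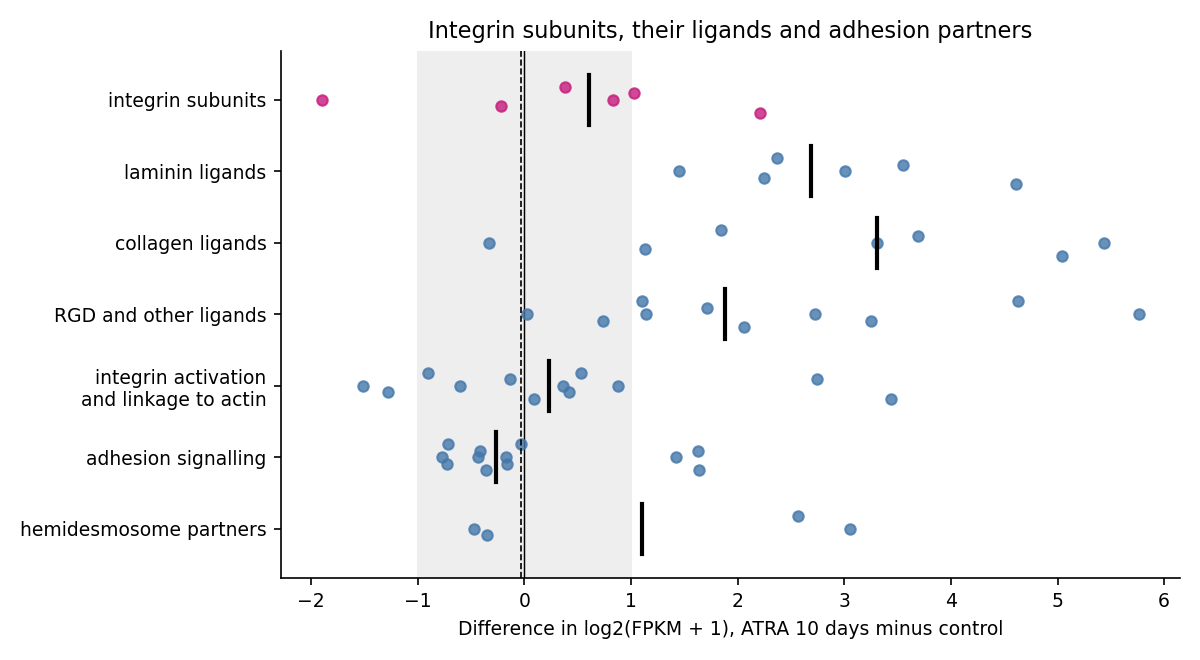
Difference in log2(FPKM + 1) at 10 days against the control (horizontal) of each tested gene of 7 lists (vertical); black bars are list medians, the grey band holds differences short of 2-fold and the dashed line is the median of all genes tested. The laminin and collagen medians lie at 2.69 and 3.31, the integrin median at 0.61 and that of adhesion signalling at -0.27.

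Among 4244 other genes at 5 FPKM or more in their highest library, those most like Itgb5 in shape over the 4 libraries were Agpat4, an acyltransferase of phospholipid synthesis, and Dcxr, a carbonyl reductase. The root mean square distance of their centred log2(FPKM + 1) values from those of Itgb5 was 0.0368 and 0.0386. Agpat4 stood at 18.8 FPKM in the control and 25.4, 50.0 and 90.5 FPKM at 0, 6 and 10 days. Most like Itgb7 were Gpa33, a cell-surface antigen of gut epithelium, and Bmp4, a growth factor of the TGF-beta family, at distances of 0.0973 and 0.134. Gpa33 stood at 25.8 FPKM in the control and 1.86, 3.12 and 5.92 FPKM at 0, 6 and 10 days. With only 4 libraries many genes share a shape, and the 2 nearest are named as a description.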

How the data were processed

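The authors deposited a table of FPKM values, per the file headers, with 1 column for each of 4 libraries. Per the submitters' processing notes, which give no versions, the tools included Trimmomatic, TopHat and Cufflinks, with mm10 as the build. The sources used here do not give the annotation, the filters or the use of strand. Cufflinks-type FPKM depend on a transcript model and on the library total.

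The table held 10201 rows, and 177 symbols with more than 1 row were summed. Its symbols lie mainly on chromosomes 1 and 10 to 18; genes elsewhere were not analysed here. Differences were taken on log2(FPKM + 1) for the 5885 symbols that reached 1 FPKM in any library, and called at 2-fold. No test was possible with 1 library per group. Depth was estimated from 1396 genes with a single GENCODE M21 transcript of 800 bases or more, as the median of FPKM times kilobases between 0.02 and 0.05. Fragments behind a level used the longest coding transcript of the gene. These are estimates. Positions came from GENCODE M21 (mm10) and promoter windows from RefSeq (GRCm38.p6). The calling steps were tested on simulated data.

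The integrin genes and the lists of ligands, partners and markers were chosen with earlier results of these data known. The named genes were all integrin subunits in the table, up to the 4 called genes of each list with the largest differences per comparison, and the 2 genes most alike to any integrin gene with a log2 range of 2 or more. Lama3, Fn1, Madcam1, Ptk2, Ptprc, Cd48, Csf1r, Epcam, Pou5f1, Dst, Sparc, Tnnc1, Myl7 and the neighbouring genes were named after their values were seen. So were Amn and Des. Of the genes the rule selects, 1 is not reported here. Alternatives were pseudocounts of 0.1 and 0.5, scaling by median ratios or by the upper quartile, no filter, a filter of 5 FPKM, a 4-fold threshold and the highest row of a repeated symbol. Median-ratio scaling over genes at 1 FPKM or more was added after seeing the data. Values were computed in Python 3.11.15 (scipy 1.17.1, pandas 2.3.3, numpy 2.4.6) and drawn with matplotlib 3.10.9.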

Additional observations from a re-analysis of the deposited data

How the results depend on the processing

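Under pseudocounts of 0.1 and 0.5 the integrin genes called at 0 days against the control numbered 2 each, Itgb3 joining Itgb7. A 4-fold threshold left 1 integrin gene called at 10 days against the control (Itgb5) and 0 at 10 days against 0 days. Over all genes, that threshold left 345 called at 0 days against the control, 180 at 6 against 0 days, 36 at 10 against 6 days, 658 at 10 days against the control and 310 at 10 against 0 days. A pseudocount of 0.1 gave 1196 genes called at 6 against 0 days and 548 at 10 against 6 days, of which 185 were lower, against 50 lower with a pseudocount of 1 and 98 with 0.5. Of 92 values for these counts and for the order of levels, 81 stayed within 1.5 times of the count reported or left the order as it was. Some of the 81 could not have changed. With a pseudocount of 1, a gene below 1 FPKM throughout cannot reach 2-fold, so dropping the filter leaves the counts as they were. Scaling a whole library leaves the order within it. No called difference of an integrin gene changed sign. Itga7 at 0 days against the control was -0.01 as deposited, 0.01 with upper-quartile scaling and 0.02 with median-ratio scaling over genes at 1 FPKM or more. No paired analysis was possible because each group is 1 library. The low levels of Itga1, Itga2 and Itgb8 rest on few fragments, and depth limits what can be said of them.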
